A study of Homo sapiens with 6 samples.

Results

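The IFIT family was measured in A549 cells, an established line of human lung adenocarcinoma, after transfection with an siRNA against HNRNPD (3 libraries) or with a negative-control siRNA (3 libraries). Its members were taken by symbol from the deposited table of 56303 gene rows, and 4 rows matched: IFIT1, IFIT2, IFIT3 and IFIT5. HNRNPD encodes AUF1, an RNA-binding protein with a preference for AU-rich RNA. Within a group the libraries are numbered 1 to 3. Separate cultures are not mentioned in the labels, so every p-value is set against the variation among these libraries alone, and that variation may be technical. The labels do not name the siRNA sequence or the time after transfection.

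IFIT genes encode interferon-induced proteins with tetratricopeptide repeats, helical repeats that fold into a pocket for RNA or for partner proteins. They are switched on when interferon receptors activate the transcription complex ISGF3, or directly by IRF3, through a promoter sequence called the interferon-stimulated response element. IFIT1 binds mRNA whose cap lacks the ribose methylation that marks the cell's own transcripts and blocks its translation. IFIT3 binds and stabilises IFIT1, IFIT2 forms complexes with both and has been tied to apoptosis, and IFIT5 binds RNA with a triphosphate at its 5' end.

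The members lie side by side on the plus strand of chromosome 10, within a span of 137.3 kb (GRCh38). IFIT2 occupies 89283694 to 89309276, IFIT3 89327894 to 89340971, IFIT1 89392546 to 89406486 and IFIT5 89414586 to 89421001. All are protein coding, and these spans are the same in GENCODE 29. Promoters are shown because those of the members read here share an element. RefSeq windows on GRCh38.p14, from 250 bases before to 50 bases after a gene's start, were matched by symbol for IFIT1, IFIT3 and IFIT5, and for IFIT1B, a paralog inside the cluster that is given for contrast. IFIT2 was not analysed here in this respect. Capitals mark the core of the interferon-stimulated response element, GAAANNGAAA, which in these plus-strand sequences reads TTTCNNTTTC. All windows lie on the plus strand, at chr10:89392373-89392672 for IFIT1, chr10:89327747-89328046 for IFIT3, chr10:89414318-89414617 for IFIT5 and chr10:89377806-89378105 for IFIT1B.
IFIT1: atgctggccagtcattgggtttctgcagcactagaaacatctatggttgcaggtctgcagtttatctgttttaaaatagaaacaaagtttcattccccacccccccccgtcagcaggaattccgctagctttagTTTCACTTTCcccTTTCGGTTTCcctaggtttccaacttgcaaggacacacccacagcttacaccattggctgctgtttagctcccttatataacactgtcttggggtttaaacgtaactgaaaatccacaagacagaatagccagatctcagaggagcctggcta
IFIT3: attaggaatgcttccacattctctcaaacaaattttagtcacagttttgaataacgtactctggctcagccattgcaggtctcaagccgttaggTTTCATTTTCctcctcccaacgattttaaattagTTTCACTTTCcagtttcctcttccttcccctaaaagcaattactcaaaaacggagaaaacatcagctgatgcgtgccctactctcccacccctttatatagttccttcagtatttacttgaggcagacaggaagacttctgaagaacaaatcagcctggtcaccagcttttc
IFIT5: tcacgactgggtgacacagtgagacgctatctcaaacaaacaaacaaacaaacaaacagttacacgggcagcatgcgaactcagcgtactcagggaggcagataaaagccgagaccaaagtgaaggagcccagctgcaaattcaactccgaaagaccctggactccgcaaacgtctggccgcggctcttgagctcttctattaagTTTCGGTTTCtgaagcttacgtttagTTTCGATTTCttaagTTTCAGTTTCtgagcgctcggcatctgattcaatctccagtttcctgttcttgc
IFIT1B: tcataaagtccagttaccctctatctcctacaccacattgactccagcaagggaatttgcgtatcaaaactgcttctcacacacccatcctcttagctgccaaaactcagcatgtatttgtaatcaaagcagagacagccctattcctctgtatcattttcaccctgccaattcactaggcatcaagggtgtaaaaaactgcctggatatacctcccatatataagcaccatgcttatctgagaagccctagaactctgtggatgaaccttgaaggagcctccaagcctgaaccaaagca

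The core occurred 2 times in the IFIT1 window, 2 times in the IFIT3 window and 3 times in the IFIT5 window, and 0 times in that of IFIT1B. All of these matches were on the minus strand. Those of IFIT1 began 116 and 103 bases before the RefSeq start, those of IFIT3 156 and 122 bases before it, and those of IFIT5 45, 19 and 4 bases before it. RefSeq gives IFIT3 another start further inside the gene, whose window also held 2 matches. Of all 35116 windows, 3.57% held at least 1 core match on either strand, 0.259% at least 2 and 0.037% at least 3. A match is a description of the sequence and not evidence of binding. With the longer form, GAAANNGAAACT, each of IFIT1, IFIT3 and IFIT5 kept at least 1 match, against 0.273% of all windows. Among 30 other interferon-stimulated genes, 24 had a window and 17 of those held the core.

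IFIT2, IFIT3 and IFIT1 stood at 416.7 counts per 1000000 (CPM, scaled by TMM) or more after HNRNPD siRNA, and at 8.61 CPM or less in control cells. IFIT5 rose less, to at most 75.2 CPM after HNRNPD siRNA, and was the highest of the 4 by CPM in control cells. IFIT2 had 560.3, 469.0 and 992.9 CPM in HNRNPD siRNA replicates 1 to 3, against 4.13, 4.20 and 4.48 CPM in control replicates 1 to 3. Replicate 3 of the HNRNPD siRNA group was the highest, at 2.12 times the lowest of that group, and the groups were far apart. IFIT2 was 157.7-fold higher in the fitted model (log2 fold change 7.30, SE 0.45, edgeR adjusted p = 0.00021).

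IFIT3 had 581.1, 449.8 and 926.6 CPM in HNRNPD siRNA replicates 1 to 3, against 6.90, 8.61 and 7.70 CPM in control replicates 1 to 3. Again replicate 3 stood above the other HNRNPD siRNA libraries, and no HNRNPD siRNA library came near a control library. The fold change was 84.3 (log2 fold change 6.40, SE 0.40, edgeR adjusted p = 0.000224). IFIT1 had 519.7, 416.7 and 583.5 CPM in HNRNPD siRNA replicates 1 to 3, against 5.45, 4.90 and 4.82 CPM in control replicates 1 to 3. Its HNRNPD siRNA libraries were closer together, the highest at 1.40 times the lowest. Its fold change was 100.2, with a smaller standard error than that of IFIT2 or IFIT3 (log2 fold change 6.65, SE 0.15, edgeR adjusted p = 2.26e-10).

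IFIT5 had 75.2, 63.6 and 72.9 CPM in HNRNPD siRNA replicates 1 to 3, against 20.1, 19.7 and 18.1 CPM in control replicates 1 to 3. The groups did not overlap, and here replicate 3 of the HNRNPD siRNA group was not the highest. IFIT5 was 3.65-fold higher (log2 fold change 1.87, SE 0.08, edgeR adjusted p = 6.82e-13). All 4 members were thus called higher at an adjusted p under 0.05 in a comparison where 28.4% of the 20465 tested genes were called higher. In each of the 4 every HNRNPD siRNA library lay above every control library, as it did in 31.7% of all tested genes, while every one lay below in 30.9%. Ordered by log2 fold change among those tested genes, IFIT2 had rank 23, IFIT1 rank 29, IFIT3 rank 30 and IFIT5 rank 632. The median log2 fold change was 6.52 over the 4 members and 0.01 over all tested genes.

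**Figure D1:**
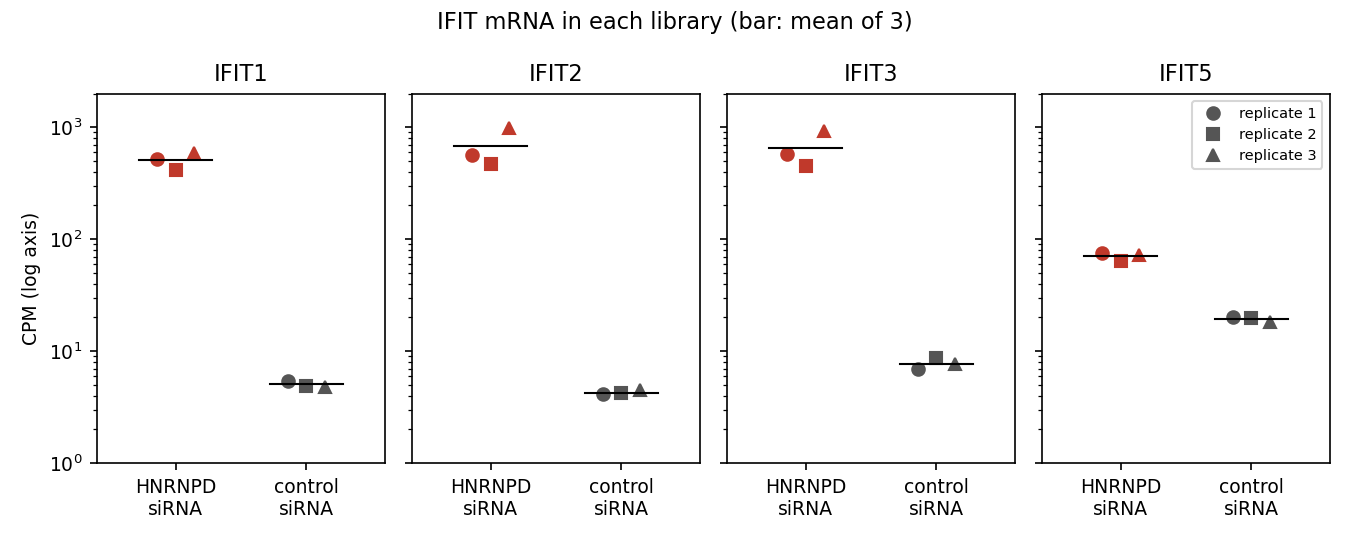
CPM of each member in every library on a log axis, with HNRNPD siRNA left and control siRNA right in each panel, a symbol for each replicate and a bar at the mean of 3. IFIT1, IFIT2 and IFIT3 sit between 416.7 and 992.9 CPM after HNRNPD siRNA and between 4.13 and 8.61 CPM in control cells, while IFIT5 sits between 63.6 and 75.2 CPM and between 18.1 and 20.1 CPM.

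As a check of the labels, HNRNPD itself had 177.0, 162.7 and 167.5 CPM in the HNRNPD siRNA libraries and 965.4, 942.8 and 942.2 CPM in the control libraries, which is 5.62-fold lower (edgeR adjusted p = 1.38e-15). The libraries held 37151094 to 40462117 counts with HNRNPD siRNA and 42607632 to 43005090 with control siRNA. All replicate pairs of a group differed by more than sampling noise (chi-square per degree of freedom 6.13 to 24.74). Of 6 epithelial markers, all were at 1 CPM or more in both groups, with a sum that was lower after HNRNPD siRNA (3590 to 3640 CPM, against 5620 to 6000 CPM in control cells). The sum was mostly keratins, of which KRT7, KRT8, KRT18 and KRT19 were called lower, while EPCAM was called higher (log2 fold change 0.33) and CDH1 was not called (-0.13). The leukocyte genes PTPRC and CD3E averaged under 0.05 CPM in both groups. Of 7 leukocyte markers, 2 averaged at least 1 CPM after HNRNPD siRNA and 3 did in control cells. Their sum was 75.4 to 156 CPM against 23.7 to 27.2 CPM, and most of it was CD68, which was called higher. CD68 shares 85.8% of its exonic bases with other genes, RP11-186B7.4 having the largest part. The other tested leukocyte markers, CD14 and ITGAM, were called lower (log2 fold changes -1.98 and -1.16). Fibroblast, endothelial and plasmacytoid dendritic cell markers summed to at most 8.03, 0.597 and 7.44 CPM in any library. The part of these markers in the IFIT values was not tested. In bulk RNA, a rise in a few cells and a rise in all cells cannot be told apart.

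Counting error was small beside the spread in the HNRNPD siRNA libraries. IFIT2 varied there by 41.5% (coefficient of variation, n = 3), where counting error alone would give 0.613%. IFIT3 varied by 37.7%, IFIT1 by 16.6% and IFIT5 by 8.7%. In the control libraries the same genes varied by 4.3%, 11.1%, 6.8% and 5.4%. IFIT2 held only 176 to 188 counts in a control library, and its spread there was below the counting error of a single library, 7.43%.

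Counts were read against gene length to set the members side by side. Per kilobase of deposited exonic length, IFIT3 had the highest level after HNRNPD siRNA, at 247 ± 93.3 CPM per kb (SD, n = 3), against 2.93 ± 0.324 CPM per kb in control cells. IFIT2 followed at 164 ± 68.2 CPM per kb, against 1.04 ± 0.0452 in control cells. IFIT1 had 110 ± 18.2 CPM per kb, against 1.10 ± 0.0742 in control cells. IFIT5 was lowest after HNRNPD siRNA, at 17.6 ± 1.53 CPM per kb, and highest in control cells, at 4.81 ± 0.261 CPM per kb. By deposited length, the order IFIT3, IFIT2, IFIT1, IFIT5 held in each of the 3 HNRNPD siRNA libraries. Between libraries, though, the ranges of IFIT3 and IFIT2 overlapped, as did those of IFIT2 and IFIT1. At this length, IFIT5 came first in control cells and IFIT3 after it in each library, while IFIT1 and IFIT2 did not differ beyond their spread. Per kilobase of the shortest coding transcript, a choice made after the data were seen, IFIT1 stood above IFIT2 in each control library. The control means were then 2.69 ± 0.182 CPM per kb for IFIT1 and 1.41 ± 0.061 for IFIT2 (SD, n = 3). The order after HNRNPD siRNA changed too. IFIT1 led in replicates 1 and 2, at 276 and 222 CPM per kb against 237 and 183 for IFIT3. In replicate 3 IFIT3 led at 377, with IFIT2 at 327 and IFIT1 at 310. Among all genes ranked by CPM per kb of deposited length, IFIT3 had ranks 85 to 161 after HNRNPD siRNA and 8281 to 9341 in control cells. IFIT5 had ranks 1997 to 2319 after HNRNPD siRNA and 6225 to 6671 in control cells.

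The make-up of the IFIT mRNA pool differed accordingly. IFIT5 made up 3.84%, 4.05% and 2.46% of the family's summed counts per kilobase in HNRNPD siRNA replicates 1 to 3, against 51.1%, 47.8% and 47.2% in control replicates 1 to 3. It was thus the main member in every control library and the smallest in every HNRNPD siRNA library. IFIT3 averaged 45.4% ± 2.01 after HNRNPD siRNA and 29.6% ± 2.70 in control cells (SD, n = 3 each). IFIT2 held 28.0%, 29.3% and 32.8% in HNRNPD siRNA replicates 1 to 3, against 10.3%, 9.99% and 11.4% in control replicates 1 to 3. IFIT1 averaged 21.1% ± 3.43 after HNRNPD siRNA and 11.1% ± 0.845 in control cells (SD, n = 3 each). These shares depend on the length used. The deposited length of IFIT1, 4613 bases, includes a long transcript form, whereas its shortest coding transcript in GENCODE 29 has 1880 bases. With the shortest coding transcript of each member, a choice made after the data were seen, IFIT1 averaged 35.7% after HNRNPD siRNA and 22.3% in control cells, and had the highest mean after HNRNPD siRNA, although IFIT3 led in replicate 3. IFIT5 was still at 2.38% after HNRNPD siRNA and 39.9% in control cells.

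**Figure D2:**
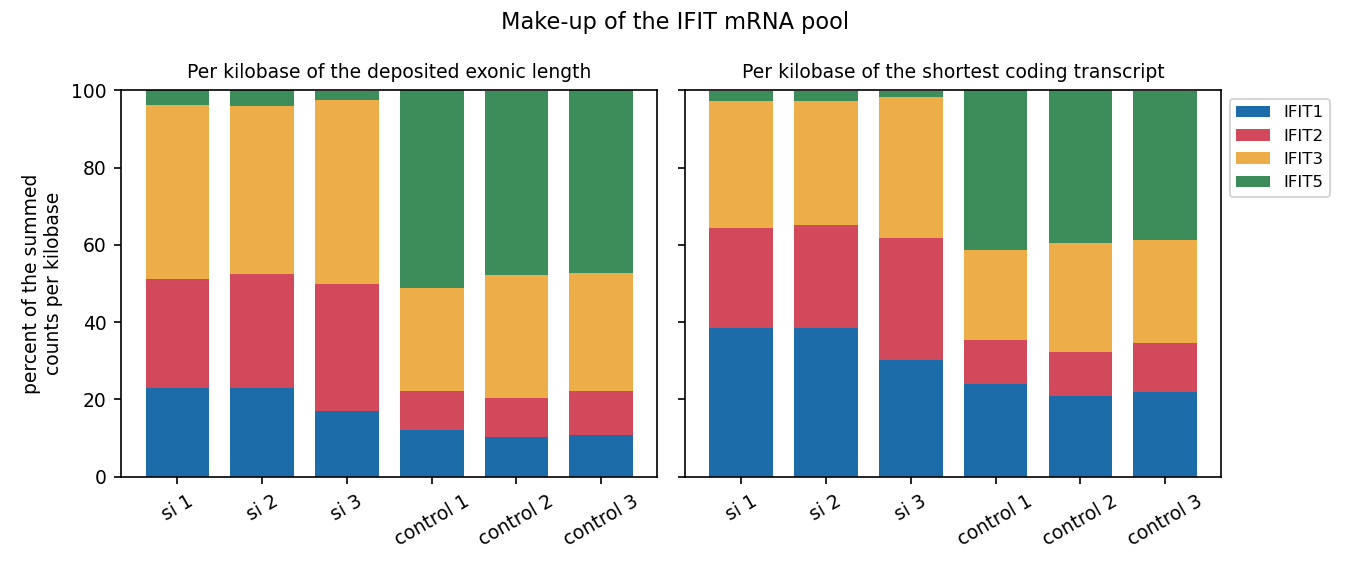
Stacked bars give each member's percent of the summed counts per kilobase in every library, HNRNPD siRNA left of control, with the deposited exonic length in the left panel and the shortest coding transcript in the right panel. IFIT5 fills 47.2% to 51.1% of the control bars and 2.46% to 4.05% of the HNRNPD siRNA bars in the left panel, and the size of the IFIT1 part depends on the length used.

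The members' changes were compared through the ratio of their counts per kilobase (deposited exonic length) within each library, in which the scaling of the library cancels. There were 6 pairs, and with 3 libraries against 3 the smallest two-sided p of the exact permutation test is 0.1, so no pair can pass 0.05. The log2 ratio of IFIT1 to IFIT5 was 2.59, 2.51 and 2.80 in HNRNPD siRNA replicates 1 to 3, against -2.09, -2.21 and -2.11 in control replicates 1 to 3. That is a difference of 4.77, or 27.3-fold, with no overlap (exact permutation p = 0.1, adjusted over the 6 pairs p = 0.12). The ratio of IFIT2 to IFIT5 differed by 5.36 and that of IFIT3 to IFIT5 by 4.47 on the log2 scale, also with no overlap and the same p-values by the exact permutation test.

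Among the 3 strongly raised members the differences were smaller. The log2 ratio of IFIT2 to IFIT3 was -0.69, -0.58 and -0.54 in HNRNPD siRNA replicates 1 to 3, against -1.38, -1.67 and -1.42 in control replicates 1 to 3. IFIT2 thus rose 1.85-fold more than IFIT3, with no overlap (exact permutation p = 0.1, adjusted p = 0.12). The log2 ratio of IFIT2 to IFIT1 averaged 0.52 ± 0.36 after HNRNPD siRNA and -0.07 ± 0.15 in control cells (SD, n = 3 each), a difference of 0.59 that was 0.38 without HNRNPD siRNA replicate 3. The log2 ratio of IFIT3 to IFIT1 averaged 1.12 ± 0.31 after HNRNPD siRNA and 1.42 ± 0.24 in control cells (SD, n = 3 each). Those groups overlapped, and the difference of -0.30 was within the spread of the libraries (exact permutation p = 0.2, adjusted p = 0.2).

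**Figure D3:**
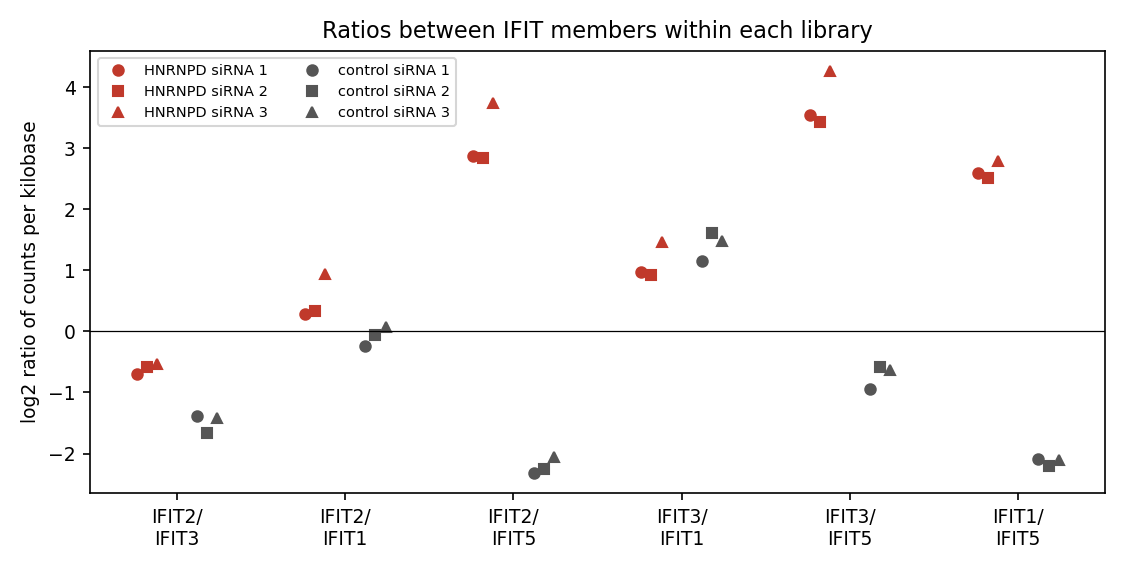
Log2 ratios of counts per kilobase for the 6 pairs of members within each library, HNRNPD siRNA in red left of control siRNA in grey, with a symbol for each replicate. Pairs with IFIT5 differ by 4.47 to 5.36 between the groups, the pairs among IFIT1, IFIT2 and IFIT3 by at most 0.89 in either direction, and only IFIT3/IFIT1 overlaps.

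HNRNPD siRNA replicate 3 was high for some members and not for others. Its level over the mean of replicates 1 and 2 was 1.93 for IFIT2 and 1.80 for IFIT3, but 1.25 for IFIT1 and 1.05 for IFIT5. The same quantity was 0.986 for HNRNPD and had a median of 0.997 over all tested genes. Over 30 other interferon-stimulated genes it ranged from 1.04 for HERC6 to 2.32 for RSAD2, with 30 of 30 above 1. The share of all tested genes above 1 was not counted. All 30 were called higher, beside 28.4% of all tested genes. Some, such as MX2 with at most 6 counts in a control library, passed the filter only through the HNRNPD siRNA group. The list was also chosen with earlier results of these data known. No result on these 30 genes is therefore read from the count of calls. Ranked by the replicate 3 level among those 30 genes and the 4 members, IFIT2 shared rank 4 with EPSTI1 (1.93 each) and IFIT3 held rank 9. IFIT1 shared rank 27 with OAS3 (1.25 each), and IFIT5 held rank 33. By rounded log2 fold change in the same 34 genes, IFIT2 shared rank 9 with IFI6 (7.30 each). IFIT1 held rank 13, IFIT3 rank 14 and IFIT5 rank 33. This is a description of 1 library against the other libraries of its group and has no replicate check.

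**Figure D4:**
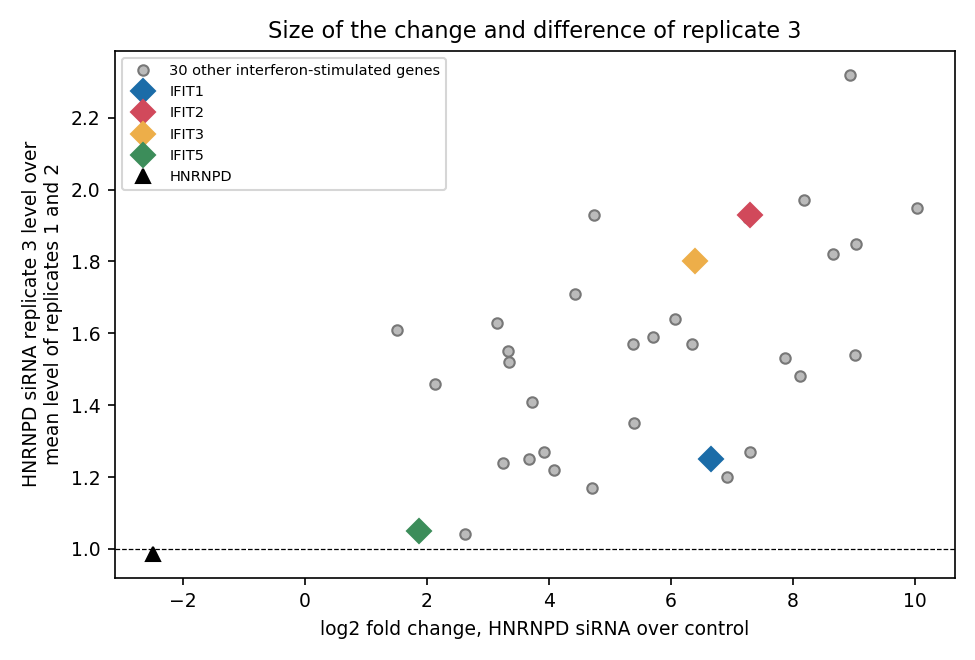
For each gene, the level in HNRNPD siRNA replicate 3 over the mean of replicates 1 and 2 (vertical axis) is plotted against the log2 fold change of HNRNPD siRNA over control (horizontal axis), with members as diamonds, 30 other interferon-stimulated genes as circles and HNRNPD as a triangle. IFIT2 at 1.93 and IFIT3 at 1.80 lie in the upper part. IFIT1 at 1.25 (log2 fold change 6.65) lies low, near IFI6 at 1.27 (7.30) and CMPK2 at 1.20 (6.92).

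Genes with the most similar profile over the 6 libraries were found by the root mean square difference of log2(CPM + 0.1) after subtracting each gene's control mean. Candidates had to average 5 CPM or more. For IFIT3 the nearest genes were IFIT1, at a difference of 0.30, the non-coding RNA gene RP11-288L9.4 (0.31) and ISG15 (0.31), which encodes a ubiquitin-like modifier. For IFIT1 they were RP11-288L9.4 (0.17), IFIT3 (0.30) and ISG15 (0.33). For IFIT2 they were IFI6 (0.25), BST2 (0.44), which encodes tetherin, and OASL (0.44). IFIT5 had other neighbours in profile, namely TRIM25 (0.05), a ubiquitin ligase of the RIG-I pathway, CMTR1 (0.07), which methylates the cap, and PCDHB2 (0.07). RP11-288L9.4 averaged under 0.1 CPM in control cells, where the pseudocount of 0.1 sets most of its value. The pseudocount also lowers the change that this measure sees for OASL and BST2, at means of 0.32 and 0.50 CPM in control cells. With control means subtracted, a small difference reflects mainly a like change and not a like level.

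CMTR1 adds the ribose methylation that keeps IFIT1 off a cap, and it had 170.4, 132.9 and 166.6 CPM in HNRNPD siRNA replicates 1 to 3, against 41.2, 42.6 and 41.6 CPM in control replicates 1 to 3. Its groups were far apart, and it was 3.75-fold higher (log2 fold change 1.91, SE 0.08, edgeR adjusted p = 1.51e-11). In a list of 16 cap enzymes, cap binders and nucleases of the 5' end, 6 were called higher and 5 lower, beside 28.4% called higher and 27.8% called lower of all tested genes. Over the list the log2 fold changes had a median of -0.10. The other risers included DXO, a decapping enzyme, 3.12-fold, XRN1, an exonuclease acting on decapped RNA, 2.05-fold, and DCP2, a decapping enzyme, 1.33-fold. DXO shares 26.0% of its exonic bases with other genes. Those lower were the cap-binding proteins EIF4E3 (log2 fold change -0.98) and NCBP1 (-0.69), the capping enzyme RNGTT (-0.54), the methyltransferase activator FAM103A1 (-0.38) and NUDT16 (-0.14). The call of NUDT16 was lost in 9 of 14 alternatives. EIF4E, which competes with IFIT1 for capped mRNA, had 50.5 ± 3.40 CPM after HNRNPD siRNA and 54.7 ± 2.61 CPM in control cells (SD, n = 3 each, edgeR adjusted p = 0.153). Without HNRNPD siRNA replicate 1 it was called lower (log2 fold change -0.18, edgeR adjusted p = 0.0389).

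Human IFIT1 and IFIT2 are known to bind the translation factor eIF3. Of its 13 subunit genes, 3 were called higher and 7 lower, beside 28.4% and 27.8% of all tested genes, and the median log2 value was -0.23. The share called higher was thus near that of all genes. EIF3E, a subunit bound by IFIT proteins, fell to 55.7 ± 7.20 CPM after HNRNPD siRNA, against 88.2 ± 3.50 CPM in control cells (SD, n = 3 each, edgeR adjusted p = 2.32e-06). EIF3C, another such subunit, had a log2 fold change of -0.60, and EIF3L and EIF3H of -0.68 and -0.63. The subunits that rose were EIF3F (log2 fold change 0.84), EIF3A (0.34) and EIF3B (0.23). The call of EIF3B was lost without control replicate 3 (edgeR adjusted p = 0.07). EIF3L shares 51.8% of its exonic bases with other genes.

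STAT2 and IRF9, which act in ISGF3, rose, while the receptor side was lower. STAT2 had 236.3, 206.4 and 267.3 CPM in HNRNPD siRNA replicates 1 to 3, against 24.7, 26.1 and 24.6 CPM in control replicates 1 to 3, with no overlap. STAT2 was 9.41-fold higher (edgeR adjusted p = 3.74e-14). IRF9 was 5.25-fold higher, and 48.4% of its exonic bases are shared with other genes. The receptor genes IFNAR1 and IFNAR2 had log2 fold changes of -0.92 and -0.99, and the kinases JAK1 and TYK2 of -0.66 and -0.49, all called. IFNAR2 shares 48.4% of its exonic bases with other genes. In a list of 10 transcription factors and RNA-sensing genes, 7 were called higher and 1 lower of 9 tested, beside 28.4% and 27.8% of all tested genes. Those that rose most were the double-stranded RNA sensors DHX58 (43.4-fold) and IFIH1 (34.8-fold), the transcription factor IRF7 (23.5-fold) and the 5'-triphosphate RNA sensor DDX58 (22.5-fold). IRF3 was the lower gene, with a log2 fold change of -0.32. IKBKE was not called (log2 fold change -0.25, edgeR adjusted p = 0.142) but was called lower without HNRNPD siRNA replicate 3 (-0.43, edgeR adjusted p = 8.34e-05), without the filter on low counts (-0.28, adjusted p = 0.00348) and with the replicate block (-0.27, adjusted p = 0.0196).

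Interferon genes were at low counts. IFNB1, the interferon beta gene, had 8, 22 and 46 counts in HNRNPD siRNA replicates 1 to 3 and 0 counts in each control library, and it did not pass the filter. A count of 0 allows up to 3 counts per library, so mean IFNB1 was at least 8.93-fold higher, or at least 5.27-fold without HNRNPD siRNA replicate 3. If both mates of a pair were counted, the bound with all libraries would be 4.47-fold. These bounds cover counting error in the control libraries alone. They leave out the spread of IFNB1 after HNRNPD siRNA, at 0.22, 0.525 and 1.149 CPM in replicates 1 to 3. IFNL3 of the lambda interferons had 200, 228 and 456 counts in HNRNPD siRNA replicates 1 to 3 and 0 counts in each control library. By the same bound its mean was at least 105-fold higher, or 52.7-fold with both mates counted. IFNL1 and IFNL2 had 90 to 294 and 144 to 313 counts in the HNRNPD siRNA libraries, with replicate 3 highest, and 0 to 2 counts in the control libraries. The IFNL2 and IFNL3 sequences are close to each other, so their counts are uncertain. Of 21 interferon genes, 5 were tested and 4 called higher, beside 28.4% of all tested genes. The fourth was IFNA1, whose call was lost in 6 of the 12 alternatives that gave it an adjusted p. These 4 passed the filter only through the HNRNPD siRNA libraries, where they are high, so no result on the list is read from the count of calls. Replicate 3 was also the highest of its group for IFIT2, IFIT3 and IFIT1, and the part of the interferon genes in the IFIT values was not tested.

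Genes around the cluster were read in the same way. Within 500 kb of the cluster, 36 rows lie in the table, and of the 32 that are not members 10 passed the filter, 7 of them called higher and 1 lower, beside 28.4% and 27.8% of all tested genes. LIPA, the lysosomal lipase gene, runs on the opposite strand across the cluster, and its annotated start lies 29 bases from that of IFIT5. LIPA had 24.0, 22.8 and 25.6 CPM in HNRNPD siRNA replicates 1 to 3, against 17.5, 18.4 and 17.4 CPM in control replicates 1 to 3. The groups did not overlap, and LIPA was 1.36-fold higher (log2 fold change 0.44, SE 0.08, edgeR adjusted p = 7.68e-05), against 3.65-fold for IFIT5. LIPA shares 4.07% of its exonic bases with other genes, and 65 bases with IFIT2. The part of IFIT2 reads in the LIPA counts was not tested. The other protein-coding genes that rose were ACTA2, smooth muscle actin (log2 fold change 1.43), FAS, a death receptor (31.1 CPM after HNRNPD siRNA and 15.5 CPM in control cells), PANK1, a pantothenate kinase (0.75), and KIF20B, a mitotic kinesin (0.42). ACTA2 shares 30.1% of its exonic bases with other genes. STAMBPL1, a deubiquitinase, was lower (-0.40), and its call was lost without HNRNPD siRNA replicate 2 (adjusted p = 0.0898) or without control replicate 1 (0.0604) or 3 (0.0573) in edgeR. CH25H, an interferon-inducible cholesterol hydroxylase, had 2, 4 and 2 counts in the HNRNPD siRNA libraries and 0 in each control library.

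**Figure D5:**
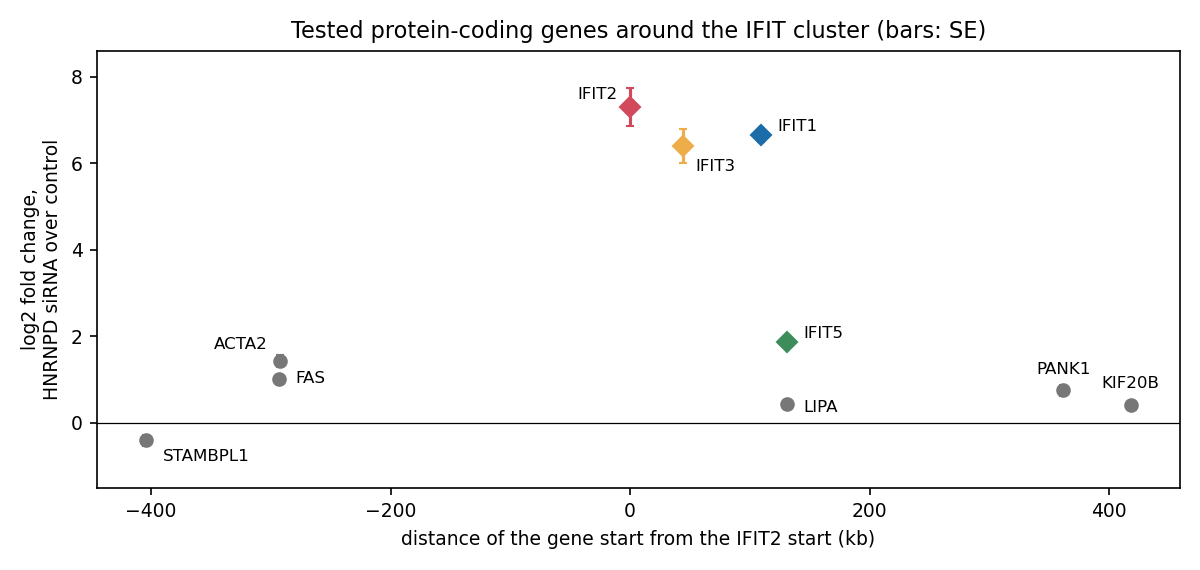
Log2 fold change of HNRNPD siRNA over control for each tested protein-coding gene within 500 kb of the cluster, by the distance of its start from that of IFIT2 in kb, with members as diamonds, other genes as circles and bars for the SE. IFIT2, IFIT1 and IFIT3 lie at 6.40 or above, IFIT5 at 1.87, and the other genes between -0.40 and 1.43.

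Relatives of the family outside the 4 members gave few counts. IFIT1B, between IFIT3 and IFIT1, had 0, 1 and 3 counts in HNRNPD siRNA replicates 1 to 3 and 0 in each control library, at or under the limit that a count of 0 allows. The pseudogene IFIT6P had at most 2 counts in any library. The pseudogene IFIT1P1 on chromosome 13 had 2, 17 and 10 counts in the HNRNPD siRNA libraries and 10, 25 and 8 in the control libraries, and it was not called (log2 fold change -0.47, edgeR adjusted p = 0.513). Transcripts of IFIT1 share a perfect stretch of up to 72 bases with IFIT1B, while no stretch of 50 bases or more links IFIT2, IFIT3 or IFIT5 with another IFIT gene in GENCODE 29. Stretches of IFIT3 of at least 50 bases also occur in transcripts of 175 other genes, and the sources used here do not state the treatment of reads with more than 1 match. IFIT2 shares 10.3% of its exonic bases with other rows, mostly with the non-coding RP11-149I23.3, which had 5 to 15 counts in each HNRNPD siRNA library and 5 to 8 in each control library. Of 24 other genes named for tetratricopeptide repeats, 8 were called higher and 9 lower, beside 28.4% and 27.8% of all tested genes, and the median log2 value was -0.08. No result on the list is read from shares this close to those of all genes. TTC32 (log2 fold change 1.33), TTC33 (1.02), TTC39B (0.78) and TTC27 (0.59) rose most, and TTC9 (-0.79), TTC26 (-0.65), TTC5 (-0.58) and TTC21B (-0.53) fell most.

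Since AUF1 binds AU-rich sequences, the pentamer ATTTA and the longer TTATTTATT were counted on the sense strand of the members' annotated 3' ends after the stop codon (GENCODE 29). ATTTA occurred 1 time after the stop codon of IFIT3 (843 bases), 2 times in each of the 3 forms of IFIT2 (1508 to 1901 bases) and 4 times in IFIT5 (2353 bases). IFIT1 had 1 in its short form (276 bases) and 4 in its long form (2774 bases). TTATTTATT occurred 0 times in all of these. Among genes with such a segment within 20% of the same length, at least as many ATTTA pentamers were found in 68.7% for IFIT3, 61.0% for IFIT5 and 31.8% for the short form of IFIT1. For IFIT2 the shares ran from 65.8% to 73.7%, and the long form of IFIT1 gave 69.8%. These are counts of letters and say nothing of binding.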

How the data were processed

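RNA was measured in 6 libraries of A549 cells, 3 with HNRNPD siRNA and 3 with negative-control siRNA. Per the labels' protocols, RNA was taken up in Trizol and libraries were made with a TruSeq RNA kit. The deposited table holds whole-number read counts per gene and each gene's exonic length in bases. Bowtie 0.12.2 is listed per the submitters' processing notes, which also list GRCh38 and mm8 without saying what each was for. The table's coordinates of the members equal those of GENCODE 29 on GRCh38. For the counting program, strand setting and annotation, nothing is given in the sources used here. Without strand, reads of overlapping genes on opposite strands cannot be told apart. Some counts may hold both mates of a pair, so that a count of 0 would allow 6 counts in place of 3. The fold bounds, which cover counting error alone, would then be too high, with 4.47 in place of 8.93 for IFNB1 and 52.7 in place of 105 for IFNL3.

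HNRNPD siRNA was set against control with edgeR 4.0.16 under R 4.3.3 (quasi-likelihood test, robust, TMM, filterByExpr, no covariate) over all 20465 genes that passed the filter, with Benjamini-Hochberg adjustment. A gene is called at an adjusted p under 0.05. Fold changes are HNRNPD siRNA over control, and their standard errors come from the F statistic. The fit was tested on simulated data, in which the share of false calls exceeded the nominal rate, so counts of calls may hold more false calls than the threshold implies. Ratios between members were tested with two-sided exact permutation tests in scipy 1.17.1. Shared stretches were found with BLAST 2.17.0. Alternatives used DESeq2 1.42.0 and limma 3.58.1.

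All 4 members were named, with HNRNPD, the cluster's neighbours within 500 kb, the 3 genes nearest in profile to each member, and up to 4 called genes per direction with the largest fold from each of 7 lists. Names beyond those were added after their values were seen. The members and lists were chosen with earlier results of these data known. Not every gene of these lists is reported here.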

Additional observations from a re-analysis of the deposited data

How the results depend on the processing

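The 4 members kept their direction and their call under all 14 alternative fits, namely DESeq2 size factors, library totals only, no filter on low counts, at least 1 CPM in 3 libraries, DESeq2, limma-voom, the replicate block, counts divided by 2, and each library left out in turn. Their log2 fold changes ran from 6.90 to 7.51 for IFIT2, 6.05 to 6.61 for IFIT3, 6.53 to 6.77 for IFIT1 and 1.81 to 1.94 for IFIT5. The highest adjusted p was 0.00308, for IFIT3 without control replicate 3. Without HNRNPD siRNA replicate 3 the log2 fold change of IFIT2 was 6.90 and that of IFIT3 6.05, the lowest of their alternatives. Genes called higher numbered 5125 to 5965 and lower 5049 to 5926 over the alternatives, against 5803 and 5687.

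The replicate numbers paired the libraries weakly if at all. Correlations of same-numbered libraries were 0.026, 0.022 and 0.014, each the highest for its control replicate. Those of differently numbered libraries were -0.038 to 0.016. With the replicate block the log2 fold changes were 7.24 for IFIT2, 6.34 for IFIT3, 6.63 for IFIT1 and 1.87 for IFIT5, and 5792 genes were higher and 5737 lower. The block changed no call of a member. For ratios between members the paired sign-flip test cannot go below 0.25.

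The median of each list kept its sign. The shares of the IFIT pool moved with the length used. By raw counts they were, after HNRNPD siRNA and in control cells, 27.5% and 13.9% for IFIT1, 34.8% and 11.8% for IFIT2, 33.9% and 21.3% for IFIT3 and 3.90% and 53.1% for IFIT5. With the shortest coding transcript they were 35.7% and 22.3% for IFIT1, 28.1% and 11.7% for IFIT2, 33.8% and 26.1% for IFIT3 and 2.38% and 39.9% for IFIT5. The longer promoter element was in 0.273% of all windows, against 3.57% for the core. Depth limits the control levels, where IFIT2 held 176 to 188 counts.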
